A study of Mus musculus with 4 samples.

Results

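The 9 genes described here encode PI3-kinase subunits and phosphoinositide phosphatases, together with the scaffold of 1 such phosphatase. They are the phosphatase gene Fig4 and its scaffold gene Vac14, the phosphatase gene Inpp5d, the class I PI3-kinase catalytic genes Pik3ca, Pik3cb, Pik3cd and Pik3cg, and the regulatory genes Pik3r1 and Pik3r5. Members were found by their symbol in the tables, each gene being represented by its transcript row of greatest exon length, and all 9 of 9 were present among 21506 genes. All 9 also passed the filter on low values (at least 1 RPKM in at least 2 libraries) that left 10309 genes. The set was chosen by measured values: Fig4 was picked for its difference between the groups of these same libraries, and the family around it was assembled with those differences known. The members' differences are therefore a description and support nothing by themselves.

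The tested cells were 32Dclone3 cells, an interleukin-3-dependent mouse myeloid line, stably infected with XZ-miR-125b virus (2 libraries), and the controls were 32Dclone3 cells infected with XZ control virus (2 libraries). Both groups were grown in serum with interleukin-3 from WEHI medium. Each condition was infected in 2 rounds with separate virus supernatants, so a replicate is an infected culture of this 1 line. Poly(A)-enriched RNA was sequenced, and the values are RPKM, reads by exon length, scaled to the reads assigned to all transcript rows of the library (per kilobase and per M reads). The question was how gene expression differs between vector-transduced and miR-125b-transduced cells.

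Phosphoinositides are membrane lipids whose inositol ring carries phosphates in different combinations, and kinases and phosphatases that add or remove these phosphates mark membranes for different proteins. Class I PI3-kinases act at the plasma membrane below cytokine and G protein-coupled receptors, where the lipid PIP3 recruits the kinase Akt and other effectors. In blood cells the delta and gamma catalytic subunits are prominent, and the phosphatase encoded by Inpp5d, known as SHIP, removes a phosphate from PIP3. Fig4 and Vac14 act elsewhere, in a complex with the lipid kinase Pikfyve on endosomes and lysosomes, where they govern the turnover of phosphatidylinositol bisphosphate on those organelles.

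Because miR-125b was the agent overexpressed, its mature sequence and the matches to it in the members' 3′ untranslated regions are shown first. The mature sequence is that of RefSeq (build GRCm38.p6, Mir125b-1 on chromosome 9), with the seed, bases 2 to 8, in capitals.
miR-125b-5p: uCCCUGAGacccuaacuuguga

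In the longest annotated 3′ untranslated region of each member (GENCODE M21, build GRCm38, which differs from the mm9 build of the tables), the letters CTCAGGG, which pair with the whole seed, were present in 4 of 9 members. The same letters were present in 15.6% of the 9946 tested genes with such a region, whose median length was 1141 bases. No member held the longer match CTCAGGGA, which was present in 5.57% of those genes. The 4 stretches of 30 bases that end in the match are given 5′ to 3′ on the strand of the gene, with the match in capitals, because these are the members in which a direct pairing with the whole seed can be written out.
Vac14: gggccctagtggcctaagaagcaCTCAGGG
Pik3cb: ccagccttaggagtgggcttgggCTCAGGG
Pik3cd: cgcccggcttttagagagcccagCTCAGGG
Pik3r5: gtccatctttggtttgtccaagaCTCAGGG

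All 4 lie in the exonic 3′ untranslated region of the named gene. The Vac14 stretch is at chr8:110719988-110720017 (plus strand), with its match starting 42 bases into a region of 429 bases. The Pik3cb stretch is at chr9:99038285-99038314 (minus strand), at base 1422 of 3059. The Pik3cd stretch is at chr4:149649654-149649683 (minus strand), at base 980 of 1472, and the Pik3r5 stretch is at chr11:68496574-68496603 (plus strand), at base 347 of 1599. A match is a description of the letters and not evidence of binding.

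Inpp5d, Pik3ca, Pik3cg and Pik3r1 had the match TCAGGGA, which pairs with less of the seed. In it TCAGGG pairs with bases 2 to 7 of the miRNA and A follows. These members are shown for comparison in the same form.
Inpp5d: gggctgagttctccagcctgctaTCAGGGA
Pik3ca: ctaacatcccattcttctctataTCAGGGA
Pik3cg: aattctgctacaaataagaaccaTCAGGGA
Pik3r1: ctctttttagaagctcttcccttTCAGGGA

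These lie at chr1:87720244-87720273 (plus strand) for Inpp5d, chr3:32464932-32464961 (plus strand) for Pik3ca, chr12:32175134-32175163 (minus strand) for Pik3cg and chr13:101681557-101681586 (minus strand) for Pik3r1. In that order the regions held 1184, 5655, 2408 and 4317 bases, beside the median of 1141 over tested genes. Fig4 held none of these letters, not even TCAGGG, in its annotated 3′ untranslated region of 350 bases. TCAGGG in any context was present in 36.4% of the tested genes with such a region, and no such share is given for TCAGGGA.

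The libraries held between 10376284 and 12620907 reads over all transcript rows, where rows of 1 gene can count the same read again. With 1 row per gene the range was 7726617 to 9479282 reads. The 9 members had between 118 and 4457 reads in a library. The row of Mir125b-1 held 4 and 4 reads in the miR-125b libraries and 0 and 0 in the control libraries, where a count of 0 allows up to 3 reads; poly(A) libraries do not capture the mature miRNA. All 12 haematopoietic and myeloid markers reached 1 RPKM in all 4 libraries. None of the 8 lymphoid markers did, and 4 of them, among them Ms4a1, Pax5 and Rag1, were at 0 reads throughout. Of 10 stromal and epithelial markers 6 were at 0, Pecam1 and Pdgfrb being the 2 at 1 RPKM or more in all libraries. Of 8 erythroid and megakaryocyte markers 5 reached 1 RPKM in all libraries, among them Itga2b and Pf4, while 2, Hbb-b1 among them, were at 0. The summed RPKM of each of these 4 lists overlapped between the groups, but single markers of the myeloid list were apart in both directions: of its 12 genes 3 were higher, 5 lower and 4 overlapping, where 42.8% of all tested genes did not overlap. Lyz2, the lysozyme gene of granulocytes and macrophages, was at 58.0 and 66.1 RPKM in miR-125b cells, against 140.4 and 157.4 RPKM in control cells. Mpo, the myeloperoxidase gene of immature granulocytic cells, was at 273.0 and 105.3 RPKM in miR-125b cells, against 39.1 and 54.2 RPKM in control cells. The part of such marker differences in the members' values was not tested. Control replicate 2 lay at one end of the leading principal component (57.8% of variance), away from the 3 remaining libraries, and it was the highest or the lowest library in 68.9% of tested genes and in 6 of the 9 members.

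Fig4, which encodes the Sac-domain phosphatase of the Pikfyve complex (chromosome 10, 40907978 to 41023047 in mm9, minus strand, 23 exons), was about 2.5 times as high in miR-125b cells. It stood at 8.16 and 9.32 RPKM (336 and 357 reads) in miR-125b cells, against 3.36 and 3.485 RPKM (123 and 118 reads) in control cells. Both miR-125b libraries were high, both control libraries were low, and the groups did not overlap. The exact 95% Poisson intervals were 7.31 to 9.08 and 8.38 to 10.34 RPKM in miR-125b cells, and 2.79 to 4.005 and 2.885 to 4.17 RPKM in control cells, and they cover counting error only. The means were 8.74 ± 0.824 RPKM with miR-125b and 3.42 ± 0.0906 RPKM in control (SD, n = 2 each), a ratio of 2.555. On the log2(RPKM + 1) scale the difference was 1.14 ± 0.18 (SE), and in the 4 pairings of a miR-125b with a control library it lay between 1.03 and 1.245. A difference at least as large in the same direction was found in 28 of 10309 tested genes (0.272%), Fig4 itself included. These are the values for which Fig4 was chosen, and they carry no test here. In bulk RNA a change in the share of cells that express a gene and a change in RNA per cell cannot be told apart.

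Vac14, which encodes the scaffold that holds Fig4 and Pikfyve together (chromosome 8, 113142538 to 113244299, plus strand), went the other way by a small amount. Its level was 16.94 and 16.95 RPKM in miR-125b cells, against 19.63 and 21.46 RPKM in control cells. Both miR-125b libraries were below both control libraries. The difference was -0.26 ± 0.17 (SE) on the log2 scale, and the means were 16.95 ± 0.0104 and 20.54 ± 1.30 RPKM in miR-125b and control cells (SD, n = 2 each). The exact Poisson intervals of miR-125b replicate 1 (15.66 to 18.3 RPKM) and control replicate 1 (18.17 to 21.17 RPKM) touched at their ends.

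The third gene of the complex, Pikfyve, which encodes the lipid kinase and is named outside the rule for named genes, was at 7.91 and 6.76 RPKM in miR-125b cells and 6.89 and 6.12 RPKM in control cells, and its groups overlapped. Measured per length within each library, Fig4 stood at 0.482 and 0.55 of the Vac14 level in miR-125b cells, against 0.171 and 0.162 in control cells. Fig4 stood at 1.03 and 1.38 of the Pikfyve level in miR-125b cells, against 0.487 and 0.569 in control cells. Fig4 transcripts were thus below those of Pikfyve in both control libraries and nominally above them in both miR-125b libraries. In miR-125b replicate 1 the 2 genes were close. The Poisson interval of Fig4 there, 7.31 to 9.08 RPKM, included the Pikfyve value of 7.91 RPKM. The ratio of Vac14 to Pikfyve was 2.14 and 2.51 in miR-125b cells, against 2.85 and 3.51 in control cells. With 2 libraries against 2, an exact permutation test of such a ratio cannot go below a 2-sided p of 0.333, so none was run.

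**Figure D1:**
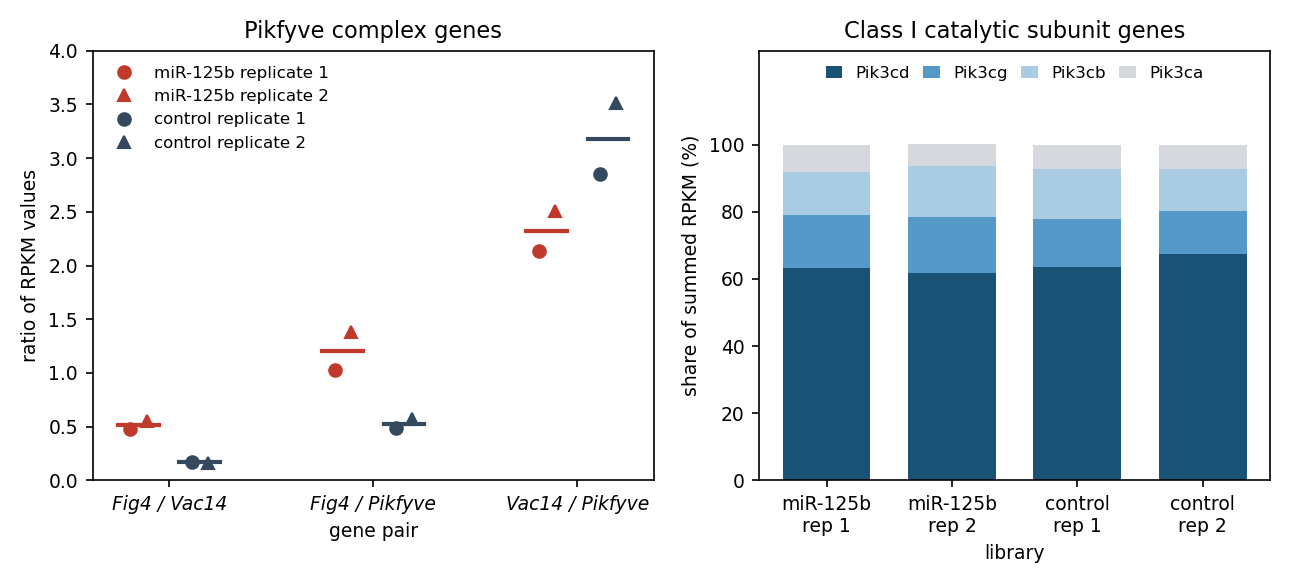
Left, ratios of RPKM values (linear axis) for pairs of Pikfyve complex genes in each library, with bars at group means (n = 2 each); Fig4 over Vac14 is 0.482 and 0.55 with miR-125b and 0.171 and 0.162 in control. Right, the share of the summed RPKM of the 4 class I catalytic genes taken by each gene, per library; Pik3cd takes between 61.7% and 67.5%.

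Inpp5d, the gene of the haematopoietic PIP3 phosphatase SHIP (chromosome 1, 89516887 to 89617083, plus strand), had the largest difference downward of the 9 members. It stood at 16.25 and 17.76 RPKM in miR-125b cells, against 21.61 and 28.34 RPKM in control cells. The groups did not overlap, and control replicate 2 was the highest library. The means were 17.0 ± 1.06 RPKM with miR-125b and 24.97 ± 4.76 RPKM in control (SD, n = 2 each), a ratio of 0.681, and the log2 difference was -0.52 ± 0.20 (SE). The size depended on control replicate 2, the difference being -0.33 without that library and -0.71 without control replicate 1. Its part in the result was not tested beyond these values.

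The nearest relative Inppl1, the gene of the more widely expressed second SHIP phosphatase, is named outside the rule to set this beside. The Inpp5d level was 3.45 and 5.23 times that of Inppl1 in miR-125b cells, against 6.69 and 5.82 times in control cells. The ratio was lower in both miR-125b libraries than in either control library. Inppl1 itself was at 4.71 and 3.40 RPKM in miR-125b cells, against 3.23 and 4.865 RPKM in control cells, where the groups overlapped.

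Pik3cd, which encodes the delta catalytic subunit typical of leukocytes (chromosome 4, 149023279 to 149072817, minus strand), was the most abundant member. It stood at 61.63 and 74.7 RPKM in miR-125b cells, against 66.36 and 64.42 RPKM in control cells. The 2 miR-125b libraries lay on either side of the control libraries, and the log2 difference of 0.05 ± 0.20 (SE) changed sign, to -0.08, without miR-125b replicate 2. Pik3cd carries the CTCAGGG match shown above.

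Pik3cg, which encodes the gamma catalytic subunit that answers G protein-coupled receptors (chromosome 12, 32858264 to 32893335, minus strand), was at 15.16 and 20.43 RPKM in miR-125b cells, against 14.88 and 12.13 RPKM in control cells. The groups did not overlap, but miR-125b replicate 1 and control replicate 1 were close, with a log2 difference of 0.025 in that pairing. The difference over all libraries was 0.37 ± 0.22 (SE). With miR-125b replicate 2 left out it was 0.16, and with miR-125b replicate 1 left out 0.57. As the groups do not overlap, dropping 1 library could not turn the sign.

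Pik3cb, the beta catalytic subunit gene (chromosome 9, 98938821 to 99040630, minus strand), was at 12.47 and 18.22 RPKM in miR-125b cells, against 15.47 and 12.15 RPKM in control cells. The replicates of each group differed more than the groups did. Its log2 difference was 0.13 ± 0.24 (SE). Leaving out miR-125b replicate 2 turned it to -0.13, and leaving out control replicate 2 turned it to -0.03.

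Pik3ca, the gene of the alpha catalytic subunit found in most tissues (chromosome 3, 32335073 to 32367408, plus strand), was at 7.93 and 7.73 RPKM in miR-125b cells, against 7.56 and 6.70 RPKM in control cells. The groups did not overlap, yet the pairings differed by as little as 0.029 on the log2 scale, and the difference was 0.12 ± 0.18 (SE). With a trend on transcript GC content removed, an alternative added after seeing the data, it was 0.01. The Pik3ca transcript had the lowest GC content of the members, 41.2%, against 57.4% for Pik3cd.

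Summed over the 4 catalytic genes, the level was 97.2 and 121.1 RPKM in miR-125b cells, against 104.3 and 95.4 RPKM in control cells. Pik3cd made up 63.4% and 61.7% of that sum in miR-125b cells, against 63.6% and 67.5% in control cells, and Pik3cg 15.6% and 16.9%, against 14.3% and 12.7%. The order with Pik3cd first and Pik3ca last held in each of the 4 libraries. The Pik3cg share was higher, and the Pik3cd share lower, in both miR-125b libraries than in either control library, the closest Pik3cd values being 63.4% with miR-125b and 63.6% in control, whereas the Pik3ca and Pik3cb shares overlapped between the groups.

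Pik3r1 encodes the main regulatory subunit of the class IA enzymes, which bind phosphotyrosine and stabilise the catalytic subunit (chromosome 13, 102450718 to 102538172, minus strand). It stood at 34.32 and 24.83 RPKM in miR-125b cells, against 22.85 and 24.42 RPKM in control cells. The groups did not overlap, but miR-125b replicate 2 was within 0.023 of control replicate 2 on the log2 scale, and only miR-125b replicate 1 stood clearly higher. The difference of 0.29 ± 0.22 (SE) was 0.07 without miR-125b replicate 1. Among the class IA regulatory genes Pik3r1, Pik3r2 and Pik3r3, Pik3r1 made up 62.6% and 55.5% of the summed RPKM in miR-125b cells, against 52.4% and 52.6% in control cells.

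Pik3r5 encodes an adaptor of the gamma enzyme, through which it responds to G proteins (chromosome 11, 68245627 to 68311348, plus strand). It was at 7.23 and 5.92 RPKM in miR-125b cells, against 6.675 and 8.11 RPKM in control cells. The groups overlapped, and the difference was -0.15 ± 0.20 (SE), or -0.02 without miR-125b replicate 2. The ratio of Pik3r5 to Pik3cg was 0.477 and 0.29 in miR-125b cells and 0.448 and 0.668 in control cells, which overlapped as well.

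**Figure D2:**
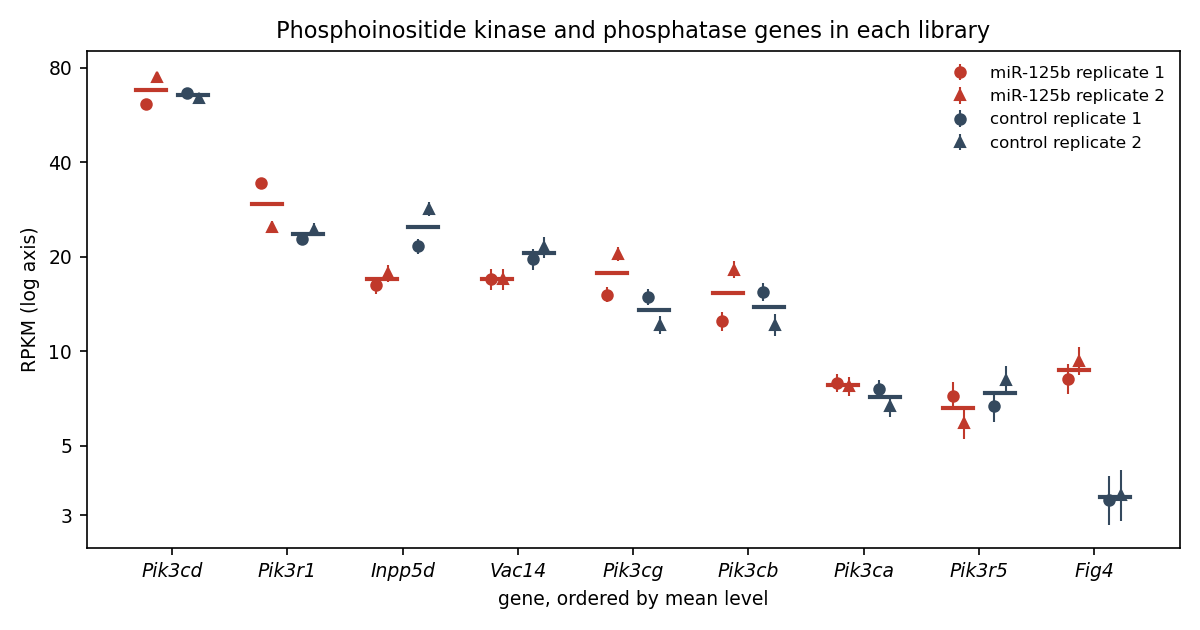
RPKM (log axis) of the 9 genes in each library, ordered by mean level, with exact 95% Poisson intervals on the reads and horizontal bars at group means (n = 2 each). Fig4, at the right, has 2 groups well apart, at 8.16 and 9.32 RPKM with miR-125b and 3.36 and 3.485 RPKM in control.

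By mean RPKM over the 4 libraries the order was Pik3cd, Pik3r1, Inpp5d, Vac14, Pik3cg, Pik3cb, Pik3ca, Pik3r5 and Fig4, with means between 66.8 and 6.08 RPKM. Pik3cd was separate from Pik3r1, and Pik3cb from Pik3ca, in that their ranges over libraries did not overlap. All other neighbours in the order had overlapping ranges. Pik3cd was above 91.7% of the tested genes and Fig4 above 26.7%.

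Transcript variants gave differences in the same direction, and the rows of 1 gene share most of their reads. The 6 rows of Pik3cd gave log2 ratios of group means between 0.056 and 0.063, the 3 rows of Inpp5d between -0.554 and -0.551, and the 3 rows of Pik3cg between 0.398 and 0.4. Pik3r1 had a second, shorter row of 5841 bases, of which 465 were not in the kept row, with a ratio of 0.401 against 0.323 for the kept row. That second row stood at 31.17 and 22.38 RPKM in miR-125b cells, against 20.45 and 20.11 RPKM in control cells. There miR-125b replicate 2 was not as close to control replicate 2 as in the kept row. Fig4 and Vac14 had 1 row each. No exon of a member lay under a transcript of another gene in the tables on either strand.

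In the fit across all 10309 genes (limma's moderated linear model, adjusted by Benjamini and Hochberg), 0 genes were called (0.0%), so neither were any of the 9 members. The members' adjusted p-values lay between 0.249 (Fig4) and 0.932 (Pik3cd). With 1 library left out, 1 group holds a single library and the spread comes from the other group alone. For those fits only effect sizes are given. An unadjusted p below 0.05 was found for 966 genes (9.37%), 430 of them higher and 536 lower. With limma-voom on recovered reads 0 genes were called and 997 had such a p. By that looser rule 1 member was higher (Fig4) and 1 was lower (Inpp5d). A log2 difference of at least 1 in size was seen in 1 of the 9 members (Fig4) and in 1.91% of all tested genes. In 6 of 9 members the groups did not overlap, 4 higher and 2 lower, against 42.8% of all tested genes. Since the members were chosen with this contrast in view, nothing is read from these counts. The median log2 difference was 0.12 over the 9 members and 0.024 over all tested genes.

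**Figure D3:**
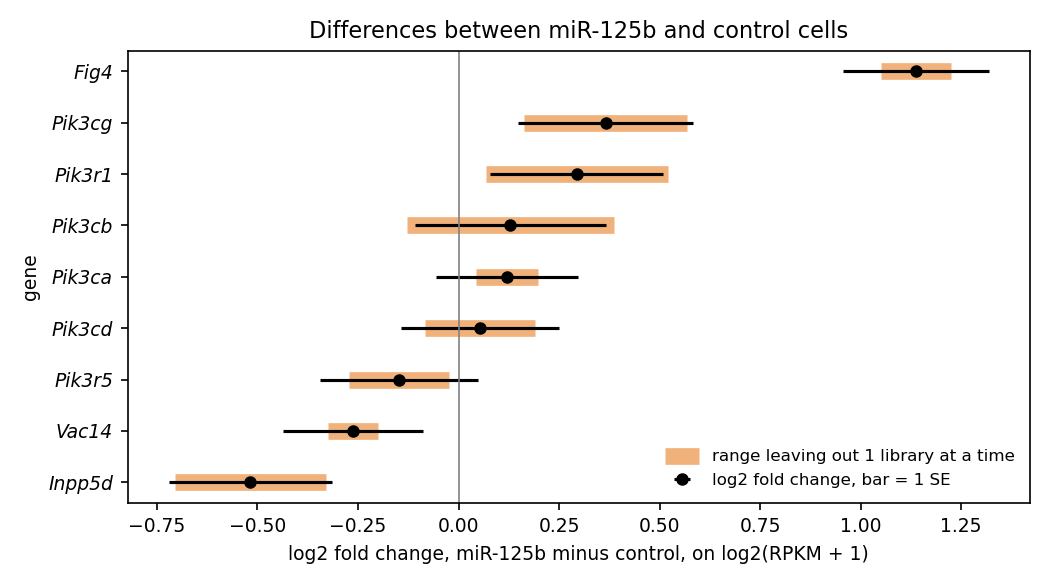
Log2 fold change (miR-125b minus control, on log2(RPKM + 1)) of the 9 genes; points are the values over all 4 libraries with bars of 1 SE, and orange bands the range when each library is left out in turn. Fig4 lies at 1.14, Inpp5d at -0.52, and the bands of Pik3cb and Pik3cd cross 0.

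**Figure D4:**
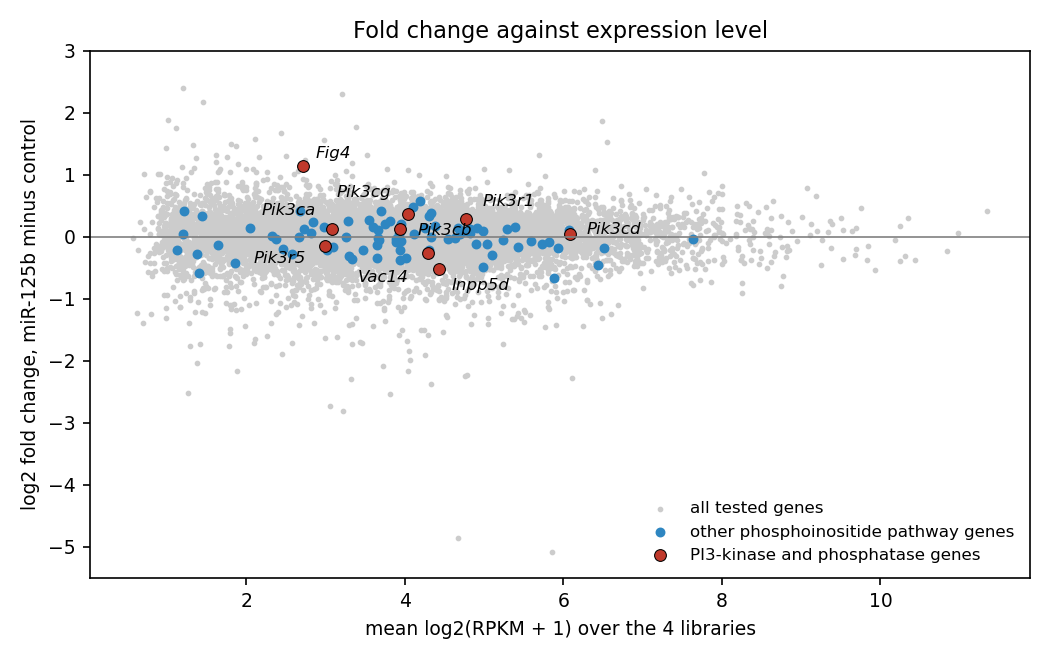
Log2 fold change (miR-125b minus control) against mean log2(RPKM + 1) for all 10309 tested genes (grey), 79 tested pathway genes (blue) and the 9 members (red). Fig4, at 1.14, lies above the other members and the pathway genes, while Pik3cd at the right lies near 0.

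The rest of the pathway was read from a list of 89 genes assembled by function, of which 79 passed the filter on low values. In the limma fit over all genes 0 of the 79 were called, and 0 higher and 2 lower had an unadjusted p under 0.05, against 4.17% and 5.2% of all tested genes. This count of 2 was 5 with limma-voom on recovered reads. Of these 79 genes 36 were nominally higher and 43 lower, and their log2 differences lay between -0.66 and 0.58, so that none reached the value of Fig4. Their median was -0.019, beside 0.024 over all tested genes, and it turned positive, to 0.070, without control replicate 2, to 0.021 with upper-quartile scaling and to 0.0008 when miR-125b replicate 2 was dropped. In 19 the groups did not overlap upward and in 13 downward, where the shares over all tested genes were 22.3% and 20.4%. Up to 3 genes with the smallest p in each group of the list are named below, and each adjusted p from limma was at least 0.505.

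The other phosphatases that, like Fig4, carry a Sac domain or act on the 5-phosphate included the 2 highest values of the list. Sacm1l, which removes phosphate from phosphatidylinositol phosphate in the endoplasmic reticulum, was at 19.29 and 23.63 RPKM in miR-125b cells, against 17.3 and 11.29 RPKM in control cells. Ocrl, the phosphatase gene mutated in human Lowe syndrome, was at 16.19 and 22.89 RPKM in miR-125b cells, against 13.32 and 13.8 RPKM in control cells. Inpp5f, the gene of another Sac-domain phosphatase, was at 1.52 and 1.83 RPKM, against 1.20 and 0.813 RPKM. The groups of these 3 genes did not overlap, with log2 differences of 0.58, 0.48 and 0.42. Of the 11 tested genes of this group 7 were nominally higher and 4 lower, with a median of 0.087. This group depended on the control libraries, with a median of -0.025 (5 higher, 6 lower) without control replicate 1 and 0.218 (9 higher, 2 lower) without control replicate 2, and it split 9 to 2 with upper-quartile scaling as well.

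Among 14 tested genes of the 3-phosphatase families, 7 were nominally higher and 7 lower (median 0.0048). This group includes myotubularins without catalytic activity, Mtmr9 and Mtmr12 among them. It split into 11 higher and 3 lower (median 0.122) without control replicate 2, and 9 and 5 (median 0.122) without miR-125b replicate 2. With upper-quartile scaling the split was 10 and 4, and without control replicate 1 the median was -0.046. Mtmr4, an endosomal myotubularin, was at 6.79 and 6.02 RPKM in miR-125b cells, against 4.27 and 4.79 RPKM in control cells. Mtmr2 differed by 0.39 ± 0.23 (SE) and Mtmr12, a myotubularin without catalytic activity, by 0.20 ± 0.18. Of the 4 phosphatases of the 4-phosphate 3 were nominally higher and 1 lower, Tmem55a differing by 0.15, Inpp4a by 0.14, Tmem55b by 0.12 and Inpp4b, named outside the rule, by -0.19 ± 0.31 (SE). The groups overlapped for all but Tmem55a, and the group median of 0.13 was 0.027 without control replicate 2.

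The class I regulatory genes Pik3r1 (0.29 ± 0.22, SE, higher without overlap) and Pik3r5 (-0.15 ± 0.20, with overlap) are members and not counted in the next group. The other regulatory and adaptor genes of class I had a median of -0.31 over 5 tested genes, all nominally lower. Without control replicate 2 their median was 0.050, with 3 higher and 2 lower. Pik3r2, the one nearest 0 at -0.0075, turned positive in 5 of the alternatives, most with the GC trend removed (0.166), and also with upper-quartile scaling (0.033), with quantile normalization (0.0059) and without control replicate 2 (0.050) or miR-125b replicate 2 (0.027). Pik3r3, a further class IA regulatory subunit gene, was at 0.998 and 1.345 RPKM in miR-125b cells, against 2.42 and 2.06 RPKM in control cells. Pik3ap1, the adaptor that links B cell and Toll-like receptors to PI3-kinase, was at 53.9 and 38.7 RPKM in miR-125b cells, against 49.8 and 106.3 RPKM in control cells. Pik3r6, the alternative adaptor of the gamma enzyme, was at 6.535 and 9.29 RPKM, against 7.32 and 13.25 RPKM. Control replicate 2 was the highest library for Pik3ap1 and Pik3r6, and their groups overlapped, whereas those of Pik3r3 did not.

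Upstream adaptors were nominally lower in all 6 tested genes (median -0.31, and -0.12 without control replicate 2), except that Cbl, at -0.02, turned positive without control replicate 2 (0.053), without miR-125b replicate 2 (0.050), with upper-quartile scaling (0.02) and with quantile normalization (0.0078). Cblb, a ubiquitin ligase gene that restrains receptor signalling, was at 2.07 and 2.20 RPKM in miR-125b cells, against 3.23 and 3.16 RPKM in control cells. Grb2, the adaptor between receptors and Ras or Gab proteins, was at 68.2 and 79.0 RPKM, against 83.7 and 121.0 RPKM. Shc1, which recruits Grb2 to cytokine receptors, was at 10.33 and 9.98 RPKM, against 10.93 and 15.71 RPKM. The groups of these 3 genes did not overlap, and for Grb2 and Shc1 control replicate 2 was the high library.

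Among 11 tested lipid kinases of the 4- and 5-positions the median was -0.14 (-0.019 without control replicate 2), with 4 nominally higher and 7 lower. The 3 with the smallest p had log2 differences of -0.29 ± 0.21 (SE) for Pip4k2c, -0.33 ± 0.25 for Pi4k2a and -0.38 ± 0.31 for Pip5k1b. Of these, the groups overlapped for Pi4k2a and Pip5k1b. Pi4ka (0.15 ± 0.18) and Pi4kb (0.12 ± 0.18), the genes of the type III 4-kinases named outside the rule, were higher without overlap. Pip5k1a (-0.16 ± 0.18), also named outside the rule, was lower without overlap, as was Pip4k2c. Class II and III PI3-kinase genes lay close to 0, at 0.07 for Pik3r4, -0.05 for Pik3c3 and -0.0044 for Pik3c2b, and their groups overlapped.

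Among the effectors of PIP3, Vav1, a guanine nucleotide exchange factor gene of blood cells, was at 27.87 and 23.96 RPKM in miR-125b cells, against 33.87 and 39.49 RPKM in control cells, without overlap. The phospholipase gene Plcg1 differed by 0.34 ± 0.24 (SE), with overlap. Of the 12 tested effectors 6 were nominally higher and 6 lower. In the Akt and mTOR branch, 8 of 13 tested genes were nominally higher, or 5 of 13 without control replicate 1 and 11 of 13 without control replicate 2, with 0.41 ± 0.24 for the ribosomal S6 kinase gene Rps6kb1, 0.27 ± 0.19 for Mtor and 0.25 ± 0.18 for Tsc1, which encodes a brake on mTOR. The groups of these 3 genes did not overlap.

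**Figure D5:**
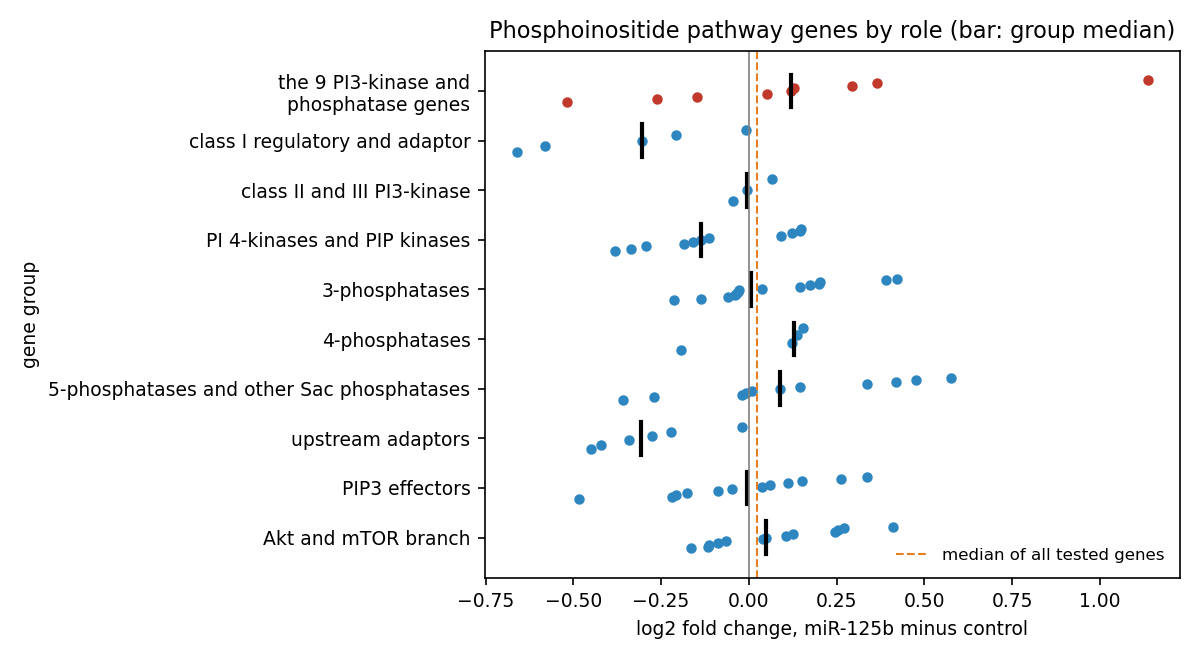
Log2 fold change (miR-125b minus control) of each tested gene, by role; points are genes, black bars group medians, and the dashed line the median of all tested genes at 0.024. Group medians run from -0.31 (upstream adaptors, and regulatory and adaptor genes other than the members Pik3r1 and Pik3r5) to 0.13 (phosphatases of the 4-phosphate). Fig4 at 1.14 lies apart at the right of the top row.

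The genes whose pattern over the 4 libraries was most like that of Fig4, by Euclidean distance between log2(RPKM + 1) values centred on each gene's mean, were Ero1l, Pnkd and Mettl7b. Their distances were 0.093, 0.174 and 0.19, beside a median of 1.17 over 10308 other genes. Ero1l, which encodes an oxidoreductase of the endoplasmic reticulum that drives disulphide formation, was at 112.3 and 132.7 RPKM in miR-125b cells, against 54.7 and 59.7 RPKM in control cells. Pnkd was at 6.245 and 6.80 RPKM, against 2.83 and 2.84 RPKM, and Mettl7b at 1.098 and 1.597 RPKM, against 0.0726 and 0.236 RPKM. Mettl7b passed the filter only through the miR-125b libraries. Its control values lay below what 3 reads on 1 kb of exon equal in those libraries (0.267 and 0.289 RPKM). At such levels the 1 added to RPKM shrinks the log2 difference, so its likeness to Fig4 depends on that scale. None of these genes held CTCAGGG in its 3′ untranslated region. This measure takes in the difference between the groups, for which Fig4 was chosen.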

How the data were processed

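Poly(A) RNA was sequenced in 2 miR-125b and 2 control libraries of 32Dclone3 cells, grouped by sample title. The authors deposited 1 table per library with 26982 RefSeq transcript rows and an RPKM value, and per the submitters' processing notes the build was mm9. Neither aligner nor counter is named: not given in the sources used. Each value times exon length was a whole multiple of what 1 read is worth in its library (tolerance 0.001) in 100.0% of rows, so reads could be recovered. Strand use in counting is not stated.

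Each gene was represented by its row of greatest exon length. limma 3.58.1 (R 4.3.3; trended prior, 2-sided, group as the only term) was run on log2(RPKM + 1) for genes at 1 RPKM in 2 libraries, with Benjamini-Hochberg adjustment at 0.05. Degrees of freedom were 2 (residual) and 4.63 (prior). The code was checked on simulated data. Fold changes on this scale understate changes of low genes, and the p-values cover no spread beyond that of these 4 cultures. Replicates differed beyond sampling noise (chi-square per gene 14.6 for miR-125b, 37.7 for control).

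The 3′ untranslated regions were the exonic bases after the stop codon in GENCODE M21, joined for 99.0% of genes; no coordinate of the tables was looked up in it. Named genes are all members, the 3 smallest p in each pathway group, the 3 closest to Fig4 and Mir125b-1. A few genes that the lists or this rule include are not reported here. Members and lists were chosen with earlier results of these data known. Alternatives covered the unit tested, pseudocount (0.1), filter, scaling, row, prior, replicate block, GC content and leaving out each library.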

Additional observations from a re-analysis of the deposited data

How the results depend on the processing

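Over all genes the number called was 0, and it was between 0 and 91 with each library left out in turn (the 91 arose without miR-125b replicate 1) and 12 with the replicate block. No member and no pathway gene was called in any alternative that kept all 4 libraries. For the fits with a library left out only effect sizes are given. Replicate numbers do not pair the samples by the labels, and the deviations of equal numbers from their group means correlated at 0.0207 across genes. Fig4 lay between 1.05 and 1.34 in the 14 alternatives. In those that kept all 4 libraries its adjusted p from limma was between 0.122 and 0.51. Vac14, Inpp5d, Pik3ca, Pik3cg, Pik3r1 and Pik3r5 kept their sign in all 14, but for Fig4 and for all of these except Pik3r5 the groups are apart, which by itself fixes the sign when 1 library is dropped; Pik3cb and Pik3cd changed it only where the text says so. The number of members with a positive difference was 6, and with libraries left out it lay between 4 and 6. The pathway list's median of -0.019 lay between -0.065 and 0.070 with libraries left out (0.0699 without control replicate 2), and its count at an unadjusted p under 0.05, 2 in the text, was 5 with limma-voom; the cause was not tested. The 4 members with CTCAGGG were 4 also over every annotated region. Depth limits low genes: 3 reads on 1 kb of exon equal 0.238 to 0.289 RPKM, depending on the library, and less on longer transcripts.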

Other observations

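Of the 79 tested pathway genes outside the 9 members, 19 (24.1%) held CTCAGGG in the longest 3′ untranslated region and 5 held CTCAGGGA. Among all tested genes with such a region the shares were 15.6% and 5.57%. The regions were not matched for length, and a longer region has more places for such letters. The difference in shares was not tested, so no enrichment is read from it. Of the 19 genes 12 were nominally lower (median log2 difference -0.09), and of the other 60 genes 31 were (median -0.0060). Over all tested genes 4863 of 10309 were nominally lower, and no split of those by match is given. The median of the whole list turned to 0.070 without control replicate 2, and a link between match and direction was not tested. The 5 genes with CTCAGGGA were Pik3ap1, Pip4k2c, Mtmr12, Inpp5k and Mlst8, of which Mtmr12 was nominally higher. Grb2, Pip4k2b and Synj2 held 2 matches each.

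The pathway genes under the filter on low values were Pik3c2a, Pik3c2g, Pip5kl1, Tpte, Sbf2, Gab1, Irs1, Irs2, Plekha1 and Foxo1. Of these, Pik3c2g, Tpte, Irs1, Irs2 and Plekha1 had 0 reads in all 4 libraries. Gab1 lay between 0 and 0.158 RPKM, and the related adaptor genes Gab2 and Gab3 passed the filter. Mtmr9, which encodes a myotubularin without catalytic activity and was noticed for its level after the values were seen, was the most abundant gene of the list, at 282.8 and 136.2 RPKM in miR-125b cells, against 184.7 and 217.6 RPKM in control cells.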
